A study of Mus musculus with 21 samples.

Results

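Of the 10 small intestine arrays labelled Prdm1-/-, 6 carried signal above background for both Car1 and Hoxd10, a pair of genes used as markers of the colon, and 4 carried neither. The 6 arrays, called marker-positive mutants here, were mutant replicates 4, 6, 7, 8, 9 and 10. The 4 marker-negative mutants were replicates 1, 2, 3 and 5. The series holds 21 arrays in all, and none of the 11 control arrays had either marker above background. The sides were chosen by the measured values of Car1 and Hoxd10, so every difference between the sides is given as a description, with no test.

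All samples were small intestine taken from mouse embryos at E18.5, shortly before birth, on a mixed strain background. Arrays labelled Prdm1-/- came from embryos with Villin-Cre, a recombinase driven by the Villin promoter of the gut epithelium, and the conditional Prdm1CA allele over the Prdm1BEH allele. Arrays labelled Prdm1+/+ came from Prdm1CA/+ embryos. The design text gives the mothers as carrying the R26R reporter allele as well. Total RNA was hybridised to Illumina WG6_V2 bead arrays. The labels call each sample a biological replicate and give no litter, sex or position along the intestine.

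Prdm1, also called Blimp1, is a transcriptional repressor that in the fetal mouse gut epithelium holds back genes of the mature intestine until weaning. Car1 encodes carbonic anhydrase 1, a cytosolic enzyme abundant in colon epithelium. Hoxd10 belongs to the HoxD cluster, whose genes are used in order along the body axis, those with higher paralogue numbers in more posterior tissue, so that Hoxd10 marks the hindgut more than the midgut. In the intestine many Hox genes are expressed in the mesenchyme around the epithelium as well as, or rather than, in the epithelium itself. These are bulk RNA samples, in which fewer cells of a type and less RNA per cell cannot be told apart.

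Car1 had raw intensities of 153, 118, 159, 84.0, 340 and 158 on mutant arrays 4, 6, 7, 8, 9 and 10, each with a detection p of 0. Its detection p was 0.716, 0.353, 0.554 and 0.494 on mutant arrays 1, 2, 3 and 5, and at least 0.170 on each control array. The detection p is the share of negative control beads at least as bright as the probe, and a probe counted as above background under 0.01. Hoxd10 had raw intensities of 107, 161, 128, 98.6, 156 and 178 on the 6 marker-positive arrays, again with a detection p of 0. On the 4 marker-negative arrays its detection p was 0.530, 0.622, 0.699 and 0.544, and on the controls it was at least 0.132. No array lay near the threshold on either gene, and each gene had 1 probe. The same 6 arrays were marker-positive at a detection p of 0.05 or 0.001, and by Car1 alone or Hoxd10 alone.

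On the normalised log2 scale Car1 read 6.85, 5.67, 7.15, 5.86, 8.07 and 6.70 on mutant arrays 4, 6, 7, 8, 9 and 10. It averaged 6.72 ± 0.88 in marker-positive mutants (SD, n = 6), against 4.37 ± 0.06 in marker-negative mutants (SD, n = 4) and 4.44 ± 0.09 in controls (SD, n = 11). As the probe was not above background in either of those groups, the difference has only a lower bound, at least 2.97-fold over marker-negative mutants. Hoxd10 read 6.07, 6.41, 6.70, 6.29, 6.67 and 6.93 on the same 6 arrays, and averaged 6.51 ± 0.31 there, against 4.34 ± 0.02 in marker-negative mutants and 4.45 ± 0.08 in controls, at least 2.57-fold higher than in marker-negative mutants. The array with the most Car1, mutant 9, was not the one with the most Hoxd10, which was mutant 10.

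The number of probes above background was 14749 to 16085 in marker-positive mutants, 14614 to 15911 in marker-negative mutants and 14596 to 15942 in controls. The raw median intensity was 57.7 to 79.7 in marker-positive mutants, 56.6 to 65.7 in marker-negative mutants and 59.0 to 79.5 in controls. The correlation between arrays over the tested probes had a median of 0.976 among marker-positive mutants, 0.978 among marker-negative mutants and 0.977 for pairs across the sides, so that an array of one side was about as close to arrays of the other side as to its own. Prdm1 has a pair of probes on the array. One was not above background on any array, and the other was above background on 6 of 6 marker-positive mutants, 4 of 4 marker-negative mutants and 0 of 11 controls, at 8.09 ± 0.55, 7.84 ± 0.69 and 4.55 ± 0.22 (SD, log2). The sources used here do not say whether either probe lies in the deleted part of the gene, so neither checks the deletion. Sis, the brush border enzyme sucrase-isomaltase and a gene of the mature intestine, averaged 12.54 ± 0.30 in marker-positive mutants, 12.71 ± 0.27 in marker-negative mutants and 5.99 ± 0.28 in controls, and its values in the mutants did not overlap those in the controls.

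**Figure D1:**
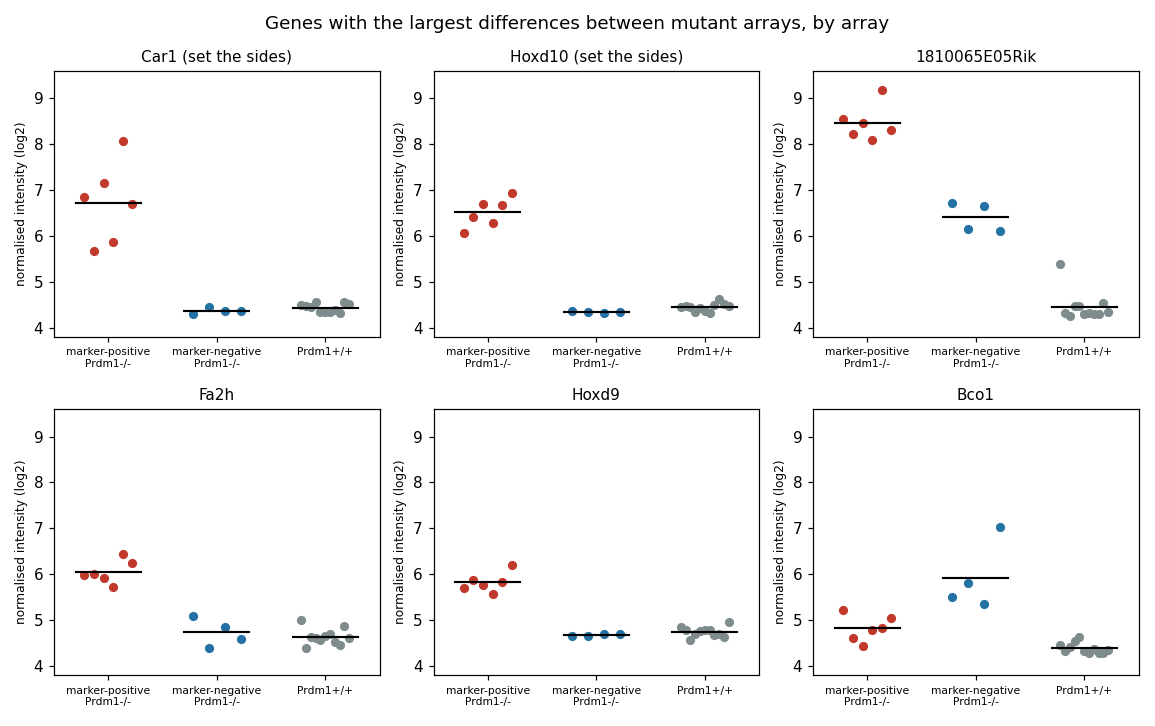
Normalised intensity (log2) on each array for the 2 genes that set the sides and the 4 other genes with no overlap and a mean difference of at least 1. Points are arrays and bars are group means. Fa2h and Hoxd9 sit at the level of the Prdm1+/+ controls in marker-negative mutants, whereas 1810065E05Rik lies above the controls on every mutant array and Bco1 is highest in marker-negative mutants.

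Beyond Car1 and Hoxd10, few genes set the sides apart by a large amount. Of 9611 other genes measured in the mutants, the 6 and the 4 arrays did not overlap for 169 genes higher (1.76%) and 43 genes lower (0.447%) in marker-positive mutants, 2.21% of genes in all. Only 3 of the higher genes (0.0312%) and 1 of the lower (0.0104%) also differed by at least 1 on the log2 scale. The 3 higher genes were 1810065E05Rik, Fa2h and Hoxd9, and the lower gene was Bco1. Fa2h and Hoxd9 were not above background on any marker-negative array, so their size is read against background, and the bounds given for them are smaller. Of the 169 higher genes, 5 in all were not above background on any marker-negative array. The median difference over the 9611 genes was 0.02, and the median size of the difference, 0.11, was smaller than the median SD within the sides, 0.20 in marker-positive and 0.19 in marker-negative mutants. The split of 169 higher and 43 lower genes depended on the scaling, and read 59 and 7 after scaling by each array's median and 93 and 100 from the authors' processed values. The 4 named genes kept their direction under both.

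1810065E05Rik, a protein-coding gene on chromosome 11, had the largest difference among genes without overlap. It read 8.55, 8.22, 8.47, 8.09, 9.19 and 8.30 on mutant arrays 4, 6, 7, 8, 9 and 10, against 6.71, 6.16, 6.65 and 6.11 on mutant arrays 1, 2, 3 and 5. It was above background on 1 of 11 controls, which ranged between 4.26 and 5.39. The mutants thus formed a pair of levels, both above the controls, and marker-positive mutants were 2.06 higher than marker-negative ones on the log2 scale. Against controls it rose by 3.19 ± 0.32 (SE) with all 10 mutants (limma, adjusted p = 8.73e-08) and by 1.95 ± 0.18 (SE) with the 4 marker-negative mutants (limma, adjusted p = 1.22e-06). With the 6 marker-positive mutants the difference from controls was 4.02 ± 0.16 (SE).

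Fa2h encodes fatty acid 2-hydroxylase, which adds a hydroxyl group to the fatty acids of sphingolipids. It read 5.99, 5.99, 5.92, 5.72, 6.44 and 6.24 on the marker-positive arrays and 5.10, 4.39, 4.85 and 4.59 on the marker-negative ones, and it was above background on 6 of 6, 0 of 4 and 0 of 11 arrays of marker-positive mutants, marker-negative mutants and controls. It was at least 1.87-fold higher in marker-positive than in marker-negative mutants. It entered the tested genes through the marker-positive arrays alone. Averaged over all 10 mutants it was at least 1.32-fold higher than in controls, an average that rests on the 6 marker-positive arrays. For the 4 marker-negative mutants, where neither group was above background, no fold is given.

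Hoxd9 lies next to Hoxd10 in the HoxD cluster on chromosome 2. It read 5.70, 5.88, 5.76, 5.57, 5.82 and 6.19 on mutant arrays 4, 6, 7, 8, 9 and 10, against 4.66, 4.65, 4.70 and 4.69 on mutant arrays 1, 2, 3 and 5. As with Hoxd10, it was above background on 6 of 6, 0 of 4 and 0 of 11 arrays by the probe used. The bound on its difference was at least 1.59-fold. A second probe was above background on only 1 of 6, 0 of 4 and 0 of 11 arrays, with a difference of 0.45. Like Fa2h, Hoxd9 entered the tested genes through the marker-positive arrays alone. Averaged over all 10 mutants it was at least 1.19-fold higher than in controls, an average that rests on the 6 marker-positive arrays. Its mean was 4.67 in marker-negative mutants and 4.74 in controls, both at background.

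Bco1 encodes the enzyme that cleaves beta-carotene to retinal, and was the one gene lower in marker-positive mutants by at least 1. It read 5.23, 4.60, 4.42, 4.79, 4.82 and 5.03 on the marker-positive arrays, above background on 1 of them, and 5.50, 5.81, 5.35 and 7.03 on the marker-negative arrays, above background on all 4. No control array had it above background. Bco1 thus entered the tested and measured genes through the marker-negative arrays, where it is high. Its size is read against marker-positive values close to background. The difference between the sides was -1.11 on the log2 scale, and -0.74 with mutant array 5, the highest, left out. It was at least 1.75-fold higher in the 4 marker-negative mutants than in controls, and no bound is given for the 6 marker-positive mutants, which lay close to background.

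RefSeq promoter windows of GRCm38.p6, 250 bases before and 50 after a start site, were held for 4 of the 6 genes above. They are shown because the genes belong to the largest differences, with the letters TTTATG, the core of sites bound by caudal homeobox factors such as Cdx2, in capitals on either strand. The windows are chr11:58420861-58421160, chr8:117095615-117095914, chr2:74697513-74697812 and chr2:74691641-74691940, all on the plus strand.
1810065E05Rik: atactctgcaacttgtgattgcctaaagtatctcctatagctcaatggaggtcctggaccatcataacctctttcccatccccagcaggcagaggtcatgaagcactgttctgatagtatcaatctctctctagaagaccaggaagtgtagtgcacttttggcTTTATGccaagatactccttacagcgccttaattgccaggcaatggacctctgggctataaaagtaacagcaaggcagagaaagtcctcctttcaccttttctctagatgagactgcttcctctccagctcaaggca
Bco1: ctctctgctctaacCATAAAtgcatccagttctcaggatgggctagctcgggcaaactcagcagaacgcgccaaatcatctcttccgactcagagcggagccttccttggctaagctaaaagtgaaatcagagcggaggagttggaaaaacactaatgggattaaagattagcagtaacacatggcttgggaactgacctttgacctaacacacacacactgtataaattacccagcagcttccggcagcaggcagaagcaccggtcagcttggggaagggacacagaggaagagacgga
Hoxd9: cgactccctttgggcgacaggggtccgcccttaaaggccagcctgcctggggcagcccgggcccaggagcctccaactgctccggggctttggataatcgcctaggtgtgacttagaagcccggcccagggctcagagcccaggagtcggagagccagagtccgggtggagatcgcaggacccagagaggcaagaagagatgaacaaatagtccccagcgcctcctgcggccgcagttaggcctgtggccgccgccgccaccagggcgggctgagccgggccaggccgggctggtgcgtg
Hoxd10: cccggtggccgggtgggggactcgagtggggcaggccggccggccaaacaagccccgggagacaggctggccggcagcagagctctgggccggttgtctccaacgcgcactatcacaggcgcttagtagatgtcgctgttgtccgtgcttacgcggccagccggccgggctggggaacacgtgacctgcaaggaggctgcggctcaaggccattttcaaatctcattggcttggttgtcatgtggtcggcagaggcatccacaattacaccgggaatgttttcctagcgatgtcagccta

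The letters TTTATG occurred once in the 1810065E05Rik window, starting 87 bases before the start site, and the reverse strand's CATAAA once in the Bco1 window, starting 236 bases before it. They were not in the Hoxd9 and Hoxd10 windows. On either strand they were held by 11.9% of all 32851 promoter windows. Cdx2 itself, which specifies intestinal identity, averaged 11.03 ± 0.57 in marker-positive mutants, 10.99 ± 0.37 in marker-negative mutants and 10.91 ± 0.54 in controls (SD, log2).

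The other genes with the largest differences and no overlap, higher in marker-positive mutants, differed by less than 1. Wfdc2, a secreted protein of mucosal epithelia, read 9.45, 8.84, 9.01, 8.55, 8.71 and 8.55 in marker-positive mutants, against 8.14, 7.88, 7.96 and 7.50 in marker-negative mutants, a difference of 0.98. It rose by 1.02 ± 0.19 (SE) against controls with all 10 mutants (limma, adjusted p = 0.000338). With the 4 marker-negative mutants the difference was 0.43 ± 0.17 (limma, adjusted p = 0.129). Ethe1, a mitochondrial enzyme that breaks down sulfide, averaged 8.59 ± 0.10 in marker-positive mutants, 8.02 ± 0.05 in marker-negative mutants and 7.74 ± 0.12 in controls (SD), and it rose in the genotype contrast with all 10 mutants by 0.63 (limma, adjusted p = 3.97e-05) and with the 4 by 0.28 (limma, adjusted p = 0.0212).

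Gdf10, a ligand of the TGF-beta family, had a difference of 0.77, and Fst, the activin antagonist follistatin, had 0.72. Igfbp5, which binds insulin-like growth factors, differed by 0.69, Cldn11, a tight junction protein, by 0.64, and Fxyd6, a regulator of the sodium pump, by 0.57. Satb1, a chromatin organiser, differed by 0.70. Col8a2, a collagen chain, differed by 0.78, and Tubb2b and Septin3, cytoskeletal genes abundant in neurons, by 0.61 and 0.58. Shf, an adaptor protein, the LIM protein gene Pdlim4, Tro and 9130024F11Rik lay between 0.55 and 0.62. Of these, 9130024F11Rik was above background on 4 of 6 marker-positive arrays and on no marker-negative or control array. It entered the tested genes through the marker-positive arrays alone, and its bound was at least 1.05-fold. Several differences in this paragraph depended on the probe. Tubb2b read -0.11 with its probe of largest variance, Pdlim4 read -0.02 with its other tested probe, and Shf read 0.12 and 0.0059 with its others. Gdf10 read 7.44 and 7.46 on mutant arrays 4 and 10 and 8.04 to 8.53 on the other 4 marker-positive arrays.

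The lower genes without overlap and of largest difference, after Bco1 and Aqp8, were of varied kinds. Slc34a2, the intestinal sodium-phosphate cotransporter, averaged 6.28 ± 0.17 in marker-positive mutants, 6.95 ± 0.36 in marker-negative mutants and 7.35 ± 0.18 in controls (SD). Slc2a2, the glucose transporter of the basolateral membrane, averaged 9.02 ± 0.12, 9.50 ± 0.18 and 9.16 ± 0.13 in the same groups. Its difference from controls was 0.05 ± 0.09 (SE) with all 10 mutants (limma, adjusted p = 0.794). Dnajb9, a chaperone of the endoplasmic reticulum, differed between the sides by -0.58, Dpyd, an enzyme of pyrimidine breakdown, by -0.58, Ehhadh, a peroxisomal enzyme of fatty acid oxidation, by -0.45, and Ndufb2, a subunit of respiratory complex I, by -0.46. Arhgef26, a guanine nucleotide exchange factor, Snx3, a sorting nexin, and Hyal5, a hyaluronidase, lay between -0.52 and -0.45. Defa26 differed by -0.74. It belongs to the alpha-defensins, whose copies are near-identical, so the probe may read several of them.

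**Figure D2:**
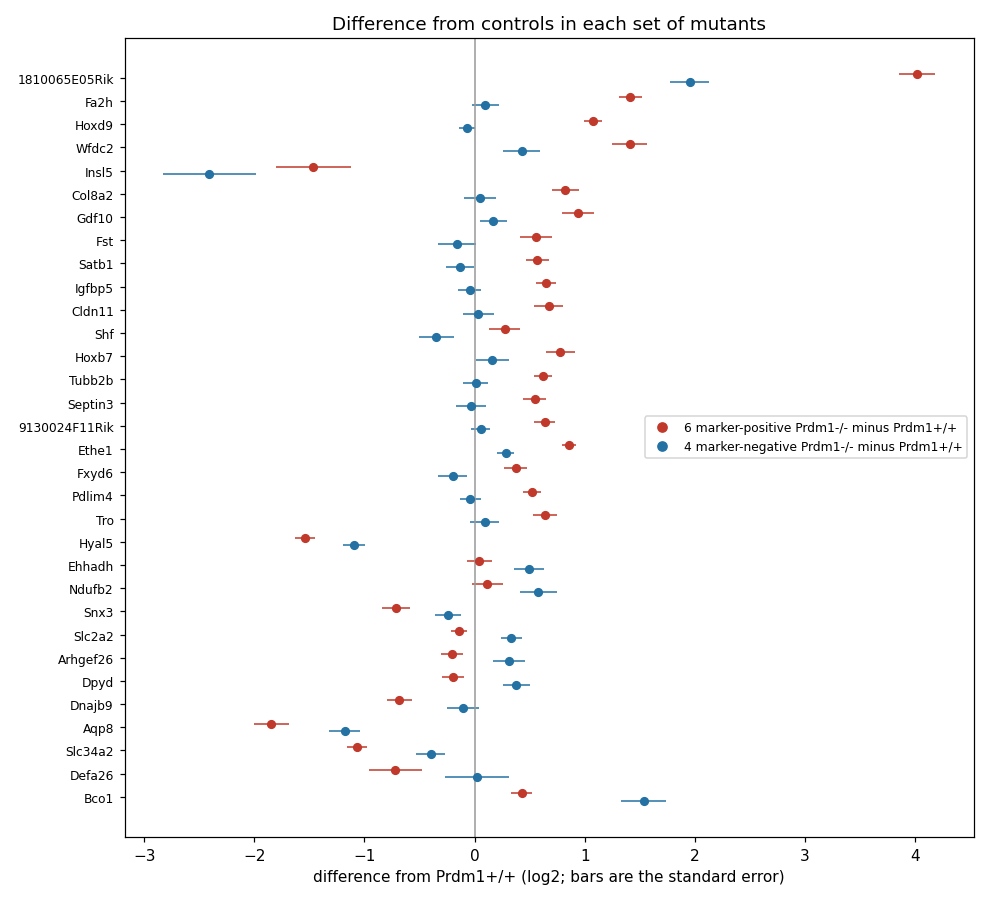
Difference from Prdm1+/+ controls (log2) for the 20 genes higher and the 12 lower with the largest differences between the sides, with the 6 marker-positive mutants (red, upper point) and the 4 marker-negative mutants (blue, lower point) fitted separately against the same controls. Bars are standard errors. The genes were chosen by the difference between the sides, so a gap between the points is built in. For most of the genes higher in marker-positive mutants, the marker-negative point lies near 0. For 1810065E05Rik, Insl5, Wfdc2, Ethe1, Hyal5 and Aqp8, among others, both points lie on the same side of 0.

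The study's own contrast is mutant against control, and the sides enter it as a choice of arrays. With all 10 mutants 2303 of 10102 genes passed an adjusted p of 0.05 in limma (22.8%), 1051 of them higher and 1252 lower. With the 4 marker-negative mutants 1256 passed (12.4%), 560 higher and 696 lower, and with the 6 marker-positive mutants 2201 passed (21.8%), 1075 higher and 1126 lower. The 3 contrasts share their 11 controls, and the smaller sets have fewer arrays, so their counts are set side by side only. After scaling by each array's median the calls were 469 higher and 1259 lower with all 10, 273 and 928 with the 4, and 524 and 894 with the 6.

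The 169 genes without overlap that were higher in marker-positive mutants had a median difference of 0.34. With all 10 mutants against controls 41 of them rose and 3 fell, where 10.4% of all genes rose and 12.4% fell. With the 4 marker-negative mutants 6 rose and 8 fell (5.54% and 6.89% of all genes). With the 6 marker-positive mutants 102 rose and 2 fell (10.6% and 11.1%). The choice of the genes contributes to these counts. The marker-negative mean lay nearer to the control mean than the marker-positive mean did for 125 of the 169. As the genes were chosen by high marker-positive values, the choice contributes to this count, and its share over all genes was not computed. Of the 43 genes lower, 4 rose and 14 fell with all 10 mutants, and 11 rose and 3 fell with the 4. With the 6, 2 rose and 18 fell. The shares of all genes are those just given, and the choice of the genes contributes here too. For 22 of these 43 the marker-negative mean lay nearer to the control mean than the marker-positive mean did, with the same limit.

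Hox genes give a body position to the gut tube, and 16 of 38 listed members other than Hoxd10 were measured. Their median difference between the sides was 0.34, against 0.02 over all genes. Of the 16, 13 were above 0, and 3 did not overlap between the sides, all higher in marker-positive mutants, where 1.76% of all genes did so. These were Hoxb7, Hoxb5 and Hoxd9, the last measured through the marker-positive arrays alone. Without Hoxd9 the median of the other 15 was 0.32. Hoxb7 read 8.48, 8.69, 8.42, 8.33, 8.40 and 8.22 in marker-positive mutants, against 7.90, 7.79, 7.91 and 7.64 in marker-negative mutants, and a second probe differed by 0.54. Hoxb5 averaged 9.45 ± 0.18 in marker-positive mutants, 9.03 ± 0.10 in marker-negative mutants and 9.01 ± 0.17 in controls (SD). On mutant arrays 4 and 10 alone its difference from the 4 was 0.27, against 0.42 with all 6.

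Within the HoxD cluster the difference was 0.43 for Hoxd3, 0.55 for Hoxd4 and 0.32 for Hoxd8, all overlapping between the sides. Hoxd9 and Hoxd10 have only the bounds given above, at least 1.59-fold and at least 2.57-fold. Hoxd11 and Hoxd12, the next members toward the posterior end, were not above background on any array by any probe, and Hoxd13 was above background on 1 control array and no mutant. By paralogue number, the 8 measured Hox genes of groups 1 to 5 had a median difference of 0.24, the 5 of groups 6 to 8 had 0.36, and the 3 of groups 9 to 13 had 0.44. The last held Hoxd9, Hoxc9 at 0.44 and Hoxa13 at -0.06. With Hoxd9 at its bound, the medians of these 3 and of all 16 were the same. Hoxa13 and Hoxb13, further hindgut members, differed in detection. Hoxb13 was not above background on any array, whereas 1 of 3 probes of Hoxa13 was above background on 6 of 6 marker-positive mutants, 3 of 4 marker-negative mutants and 8 of 11 controls.

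The remaining Hox genes lay between -0.12 and 0.39 and overlapped between the sides. Hoxb6 differed by 0.39, Hoxa7 by 0.36, Hoxb4 by 0.28 and Hoxa5 by 0.20, and Hoxc6 and Hoxb2 by 0.07 and 0.05. Hoxa4 and Hoxa2 read -0.10 and -0.12. Against controls, 4 of the 16 rose with all 10 mutants (10.4% of all genes rose), 0 with the 4 marker-negative mutants (5.54%) and 8 with the 6 marker-positive mutants (10.6%), and none fell. At an unadjusted limma p under 0.05, in either direction, the count was 8 with all 10, 0 with the 4 and 9 with the 6. The share of all genes that pass at that threshold is not given, so these counts have no background beside them. Hoxd9, measured through the marker-positive arrays alone, is in the counts with all 10 and with the 6 at either threshold. The difference between the sets of mutants was not tested.

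**Figure D3:**
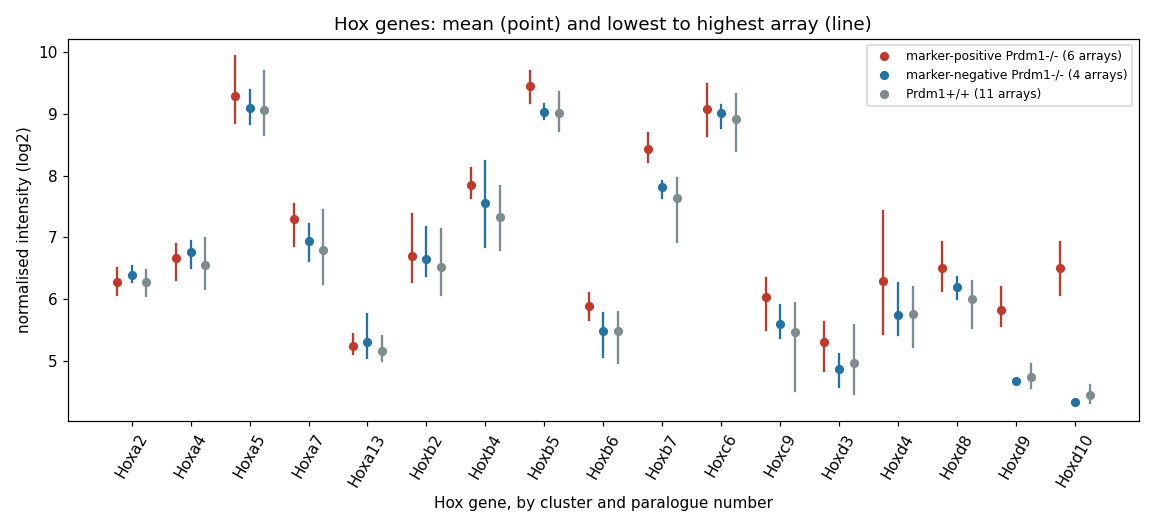
Normalised intensity (log2) of Hoxd10 and the 16 other measured Hox genes, ordered by cluster and paralogue number, in marker-positive mutants, marker-negative mutants and controls. Points are means and lines run between the lowest and highest array. Hoxd9 and Hoxd10 stand clear of both other groups in marker-positive mutants, and Hoxb7 and Hoxb5 by a narrow gap from marker-negative mutants.

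The other listed genes of colon epithelium were not, as a group, higher in marker-positive mutants. Of 25 listed, 13 were measured, with a median difference of -0.07, 4 above 0 and 9 below. One was higher without overlap (1.76% of all genes), Insl5, a peptide hormone of colonic enteroendocrine cells, and one lower (0.447%), Aqp8, a water channel of surface colonocytes. Insl5 read 5.42, 6.22, 5.85, 6.04, 5.73 and 6.03 in marker-positive mutants and 4.35, 5.30, 5.24 and 4.87 in marker-negative mutants, but controls were higher than both, at 7.35 ± 0.88 (SD). It fell by 1.84 on the log2 scale with all 10 mutants (limma, adjusted p = 8.54e-05) and by 2.41 with the 4 (limma, adjusted p = 0.000919). Aqp8 averaged 6.78 ± 0.45 in marker-positive mutants, 7.44 ± 0.19 in marker-negative mutants and 8.62 ± 0.27 in controls, and fell by 1.58 with all 10 (limma, adjusted p = 9.13e-08).

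Other colon genes overlapped. Zg16, a lectin of goblet cell granules, differed by -0.85, and Lypd8, which keeps bacteria from the colon surface, by -0.42. Slc26a3, the chloride-bicarbonate exchanger of the colon, differed by 0.18 and the hormone gene Pyy by 0.12. Car2, the carbonic anhydrase whose gene lies near Car1 on chromosome 3, differed by 0.68 and overlapped between the sides, and rose by 1.02 ± 0.22 (SE) with the 4 marker-negative mutants against controls (limma, adjusted p = 0.00465). Of the listed genes Car4, Retnlb, Fxyd4, Muc4 and 6 others were not measured, since their probes were above background on too few mutant arrays.

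Genes of the small intestine were present on both sides. Of 34 listed enterocyte genes 28 were measured, with a median difference of -0.18, 24 of them below 0, and Slc2a2 alone without overlap. Treh, the disaccharidase trehalase, differed by -0.62. Lct, the lactase of suckling animals, averaged 12.05 ± 0.40 in marker-positive mutants, 12.11 ± 0.35 in marker-negative mutants and 12.23 ± 0.38 in controls (SD). Gata4, a factor of the proximal small intestine, averaged 5.57 ± 0.43, 5.75 ± 0.30 and 5.76 ± 0.40. In the distal small intestine list 8 of 9 genes were measured, with a median of -0.08. Fabp6, the ileal bile acid binding protein, overlapped widely between the sides, with 10.83 on mutant array 9 and at most 8.70 on the other marker-positive arrays.

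The genes that the mutation moves were shifted on both sides. All 10 measured genes of the suckling period, among them the arginine synthesis enzymes Ass1 and Asl, fell with all 10 mutants, against 12.4% of all genes. With the 4 marker-negative mutants 9 of 10 fell (6.89% of all genes), and with the 6 marker-positive mutants 10 of 10 (11.1%). Their differences between the sides ran between -0.52 and -0.03. Of 5 measured genes of the weaning period 4 rose and 1 fell with all 10 mutants (10.4% of all genes rose), and the counts were also 4 and 1 with the 4 (5.54%) and with the 6 (10.6%). Arg2, the mitochondrial arginase, averaged 7.77 ± 0.52 in marker-positive mutants, 8.66 ± 0.31 in marker-negative mutants and 4.42 ± 0.28 in controls (SD), the last not above background on any array. The sides overlapped for Arg2.

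Genes of supporting tissue read higher on the marker-positive side. All 13 measured mesenchyme genes were above 0, with a median of 0.28, and Col5a1, a fibrillar collagen chain, and Dcn, the proteoglycan decorin, did not overlap between the sides, at 0.32 and 0.28 (1.76% of all genes did so). From the authors' processed values the median was smaller, at 0.15, as was that of smooth muscle, at 0.14. The summed intensity of the mesenchyme genes was 17845, 17228, 17032, 16453, 17758 and 19551 on the marker-positive arrays and 13353, 14606, 14359 and 15773 on the marker-negative arrays, with no overlap, and 11405 to 15493 on the controls. Col1a1 had the largest difference of the list, 0.45. The summed intensity of the 16 Hox genes did not overlap between the sides either, at 2917 to 3748 in marker-positive mutants and 2540 to 2856 in marker-negative mutants. The controls ran between 2118 and 3101, which covers part of the marker-positive range. Both sums were thus higher on the 6 marker-positive arrays than on the 4 marker-negative ones. Among the 6, mutant array 10 had the highest mesenchyme sum and the lowest Hox sum. The part of mesenchyme in the Hox and other differences was not tested.

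All 10 measured smooth muscle genes were above 0 as well, with a median of 0.25. They overlapped between the sides, with Myh11, the smooth muscle myosin, at 0.44 and Smtn, smoothelin, at 0.39. Of 7 measured genes of enteric neurons and glia 5 were above 0, with Sox10, a glial factor, at 0.38 and Stmn2, a neuronal stathmin, at 0.36. Against controls, 2 of the 13 mesenchyme genes rose with all 10 mutants (10.4% of all genes), 0 with the 4 marker-negative mutants (5.54%) and 4 with the 6 marker-positive mutants (10.6%). At an unadjusted limma p under 0.05, in either direction, 4 mesenchyme genes passed with all 10, 1 with the 4 and 6 with the 6. Of the 10 smooth muscle genes 0 rose with all 10, with the 4 and with the 6. At an unadjusted limma p under 0.05, in either direction, 0 smooth muscle genes passed with all 10, 1 with the 4 and 2 with the 6. For both lists the share of all genes that pass at that threshold is not given.

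**Figure D4:**
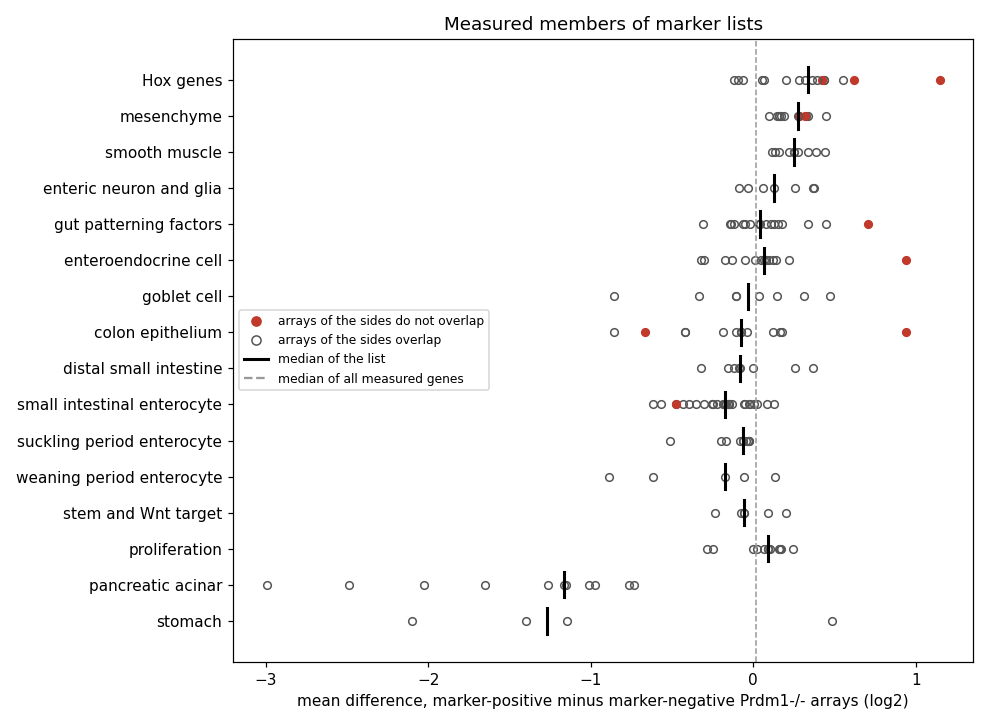
Mean difference between marker-positive and marker-negative mutants (log2) for each measured member of 16 lists. Filled points are genes without overlap between the sides, black bars are list medians and the dashed line is the median of all genes, 0.02. Hox, mesenchyme and smooth muscle medians lie between 0.25 and 0.34, and pancreatic acinar and stomach medians lie below -1.

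Larger differences came with wide overlap. Whatever the overlap, 9 genes were at least 1 higher (0.0936%) and 23 at least 1 lower (0.239%) in marker-positive mutants, and many of the lower ones were digestive enzymes of the pancreas or genes of the stomach. All 11 measured acinar genes were below 0, with a median of -1.17. Amy2a5, pancreatic amylase, read 11.95, 8.68, 14.07, 12.63, 4.55 and 5.16 on mutant arrays 4, 6, 7, 8, 9 and 10, against 11.54, 14.85, 12.03 and 11.60 on the marker-negative arrays. The summed acinar intensity was 11255, 2119, 48005, 15596, 1391 and 1363 on the marker-positive arrays and 8103, 88600, 11296 and 7699 on the marker-negative arrays, with 1996 to 49988 on the controls. Acinar signal was thus high on arrays of each group.

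Of the 4 measured stomach genes 3 were below 0. Tff2, a trefoil peptide of gastric mucous cells, read 11.79, 4.64, 5.98, 11.62, 4.75 and 8.66 in marker-positive mutants, against 11.11, 11.22, 12.26 and 5.44 in marker-negative mutants. Its level split within each side. Among the 4 marker-positive arrays with Amy2a5 and Cela2a, an elastase gene, both above background, the differences from the 4 marker-negative arrays were 1.93 for 1810065E05Rik, 1.17 for Fa2h, 1.05 for Hoxd9 and -1.16 for Bco1.

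The sides also differed in sex-linked genes. Xist, the RNA that coats the inactive X chromosome, was above background on 2 of 6 marker-positive mutants, 4 of 4 marker-negative mutants and 6 of 11 controls. Eif2s3y, a gene of the Y chromosome, was above background on 4 of 6, 0 of 4 and 5 of 11. The 2 marker-positive arrays with Xist were mutants 4 and 10. Against the 4 marker-negative arrays they gave differences of 2.02 for 1810065E05Rik, 1.38 for Fa2h, 1.28 for Hoxd9, 1.13 for Wfdc2 and 0.62 for Tubb2b, and -0.79 for Bco1. These lay close to the differences with all 6 arrays except for Bco1, where the difference was smaller. Gdf10 also differed less on these arrays, by 0.27. The part of sex in the differences was not tested. On these arrays the median was 0.25 for Hox genes, 0.28 for mesenchyme, 0.14 for smooth muscle, -1.86 for acinar genes and 0.0012 for the 4 stomach genes, where it was -1.27 with all 6.

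**Figure D5:**
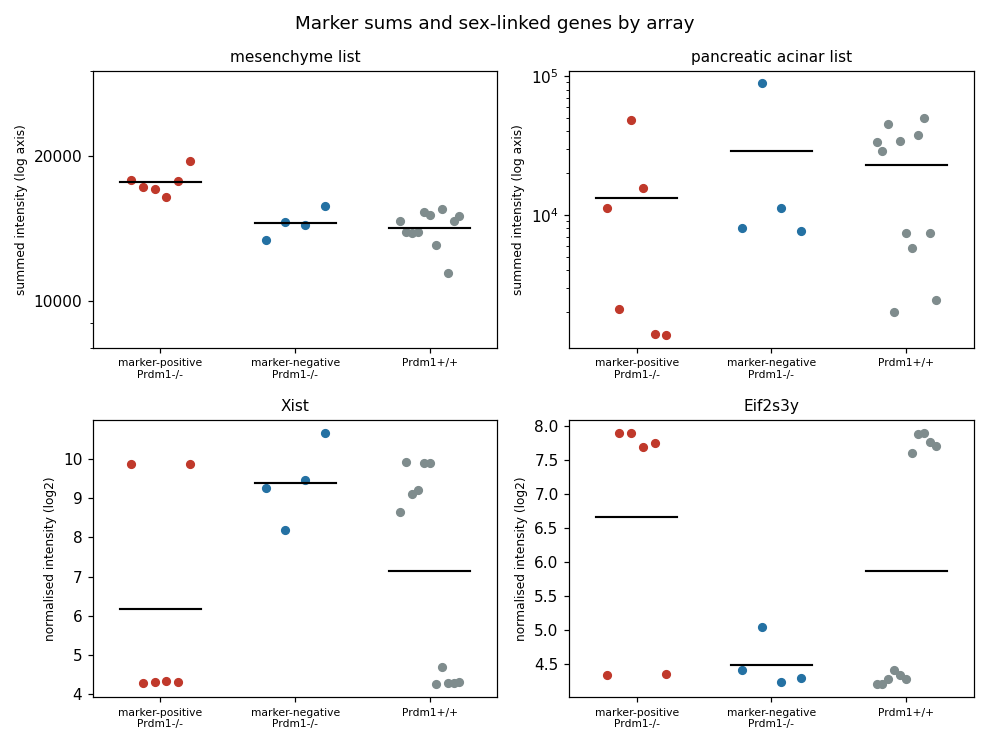
Summed intensity of the mesenchyme and the pancreatic acinar lists (upper panels, log axis) and normalised intensity (log2) of Xist and Eif2s3y (lower panels) on each array. Points are arrays and bars are group means. Mesenchyme sums do not overlap between the sides, acinar sums do, and Xist is present on all 4 marker-negative but on 2 of 6 marker-positive arrays.

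Markers of other cell types and neighbouring tissues overlapped between the sides, other than Insl5 of the enteroendocrine list. The median difference was -0.03 for 8 goblet cell genes, with the mucin gene Muc2 at 0.47. It was 0.07 for 15 enteroendocrine genes and -0.03 for 9 immune genes, of which the receptor chain gene Fcer1g overlapped at 1.53 and the class II gene H2-Aa at -0.57. It was 0.06 for 3 genes of erythroid cells, with Slc4a1, the red cell anion exchanger, at 0.25 and Alas2, of haem synthesis, at 0.06. It was 0.01 for 6 liver genes, with the fibrinogen chains Fgg and Fga at 0.26 and 0.19. Of 13 urogenital genes 4 were measured, with a median of 0.29, and Upk1a, a urothelial plaque protein, at 0.47 and the signalling ligand Shh at 0.44 overlapped. The 3 measured genes of mesothelium and fat, Krt19 and Msln among them, had a median of -0.06.

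Genes of epithelial upkeep were similarly close. The 6 measured stem cell and Wnt target genes had a median of -0.06, with the adhesion receptor Cd44 at 0.20 and Olfm4 at -0.24. The 12 proliferation genes had 0.09, with the mitotic kinase Plk1 at -0.25 and the replication clamp Pcna at -0.29. Of 17 measured patterning factors, with a median of 0.04, Satb1 alone did not overlap. The 15 ion and water transport genes had a median of -0.0038, and Aqp3, a water and glycerol channel, differed by -0.36 while it rose by 3.63 with all 10 mutants (limma, adjusted p = 2.06e-14). Cubn, the ileal receptor of intrinsic factor, differed by -0.32. The 9 stress genes had a median of -0.14, with Hsp90aa1, a cytosolic chaperone, lower without overlap at -0.41.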

How the data were processed

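The deposited table of 21 arrays held, per probe, a raw bead intensity and a detection p-value, and the authors' processed values formed a separate table of intensities (per the file headers). GenomeStudio 2009.2 is named in the submitters' processing notes. Each array's processed intensities were a straight-line function of its raw ones, with scale factors of 0.754 to 1.38 and a largest residual of 0.011, so the authors' step rescaled the arrays and subtracted a constant. The step that gave the detection p-values in the deposited file moved in units of 1 in 936.

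Raw intensities were corrected and quantile-normalised with limma 3.58.1 (neqc, offset 16) in R 4.3.3, on the log2 scale. Probes were named from the platform annotation, and 34885 of 45281 had 1 symbol. A probe was tested when above background (detection p under 0.01) on at least 4 of 21 arrays (16970 probes), and a gene took its tested probe of highest mean (10102 genes). A gene was measured between the sides when above background on at least 4 of 10 mutant arrays. Genotype contrasts were fitted with limma, each on its own arrays, with Benjamini-Hochberg adjustment over all probes tested. The fits were tested on simulated data. A difference between the sides was called when the 6 and the 4 arrays did not overlap and the means differed by at least 1. "At least" folds set the bright group's mean against the lowest signal above background. The number of arrays limits the precision.

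Named were Prdm1, Car1, Hoxd10, the 20 higher and 12 lower genes without overlap and of largest difference, every measured Hox gene, up to 4 non-overlapping members of each other list or its 2 of largest difference, and Sis, Lct, Fabp2, Cdx2, Gata4 and Xist. Further list members are named after their values were seen. Fabp2 is not analysed here, and an item of the rule is not reported here. The members and the 24 lists were chosen with earlier results of these data known. Alternatives were the scaling, the background correction, the authors' processed values, the detection filter, the choice of probe, the marker threshold, the size of the difference, a replicate block, and leaving out each array. Subsets by Xist and by acinar genes were added after seeing the data.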

Additional observations from a re-analysis of the deposited data

Results flagged for a closer look

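Within the 6 or the 4 arrays of a side, 14 of 228 sets of values held an array far from the others, by a test that flags about 1 in 20 by chance. The cause was not tested for any of them.

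Among the marker-positive mutants, array 9 stood high for Fabp6 at 10.83, with the sum of the distal small intestine list at 14.12 (log2). Array 8 stood high for Fga at 7.55 and Slc2a2 at 9.25, and array 10 stood low for Hyal5 at 6.33.

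Among the marker-negative mutants, array 2 stood high for Amy2a5 at 14.85 and for the summed acinar list at 16.44 (log2). Array 5 stood low for Tff2 at 5.44, Fga at 5.79 and the summed enteroendocrine list at 13.40 (log2), and high for Hsp90aa1 at 8.22. Array 1 stood high for Fcer1g at 7.93. Array 3 stood low for Hoxc6 at 8.77 and for the summed Hox list at 11.31 (log2). None of Car1, Hoxd10, 1810065E05Rik, Fa2h, Hoxd9 and Bco1 held such an array on either side.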

How the results depend on the processing

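The count of genes with no overlap and a difference of at least 1, 3 higher and 1 lower, became 1 and 0 without background correction, 5 higher from the authors' processed values, 0 and 0 among genes detected on all arrays, 27 and 7 at a difference of at least 0.5, and 7 and 22 among mutants with Xist detected, where 2 arrays face 4 and fewer arrays overlap less by construction. With each array left out in turn it ran between 3 and 5 higher and between 1 and 3 lower, with 5 higher without mutant array 3 and 3 lower without mutant array 7. Without mutant array 5, Bco1 fell short of a difference of 1, so it was not among the lower genes counted there. Without background correction the differences of low genes shrank, to 1.63 for 1810065E05Rik, 0.69 for Fa2h and 0.56 for Hoxd9, and -0.59 for Bco1. With the probe of largest variance Tubb2b reversed, at -0.11. No other difference without overlap among the 90 named genes changed sign under an alternative, but of 32 further tested probes 3 had the opposite sign, those of Tubb2b, Pdlim4 and Hoxa2. Leaving out each array gave 2106 to 2352 genotype calls with all 10 mutants, 966 to 1004 with the 4 and 1840 to 2155 with the 6. Median scaling gave 1418 with the 6. Same-numbered mutants and controls had correlated deviations in some pairs only (-0.25 to 0.30, over 0.1 in 6 of 10 pairs, with 0 of 10 mutants closest to its own number), so the samples were taken to share only a number. With a replicate block the calls were 2007 with all 10, 432 with the 4 and 1149 with the 6. A block by chip position or litter was not run, as the labels give neither. Signal near background limits what can be said of Car1, Hoxd10, Hoxd9, Fa2h, Bco1 and 9130024F11Rik.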
